A study of Mus musculus with 24 samples.

Results

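Malat1 and Neat1 are neighbouring genes for long noncoding RNAs that stay in the nucleus, and their chromatin was described here in mouse macrophages with and without a hairpin against Wdr82. All ChIP-seq peaks that overlapped the stretch chr19:5780000-5870000 (mm9) were taken, which gave 114 peaks of 756484 in 24 libraries. Of these, 63 peaks lay in or reached into the span of 50001 bp from the low edge of Malat1 to the high edge of Neat1. The rule selects peaks by position and applies no threshold on a measured value. By antibody the stretch held 16 peaks of total RNA polymerase II (Pol II), 23 of Pol II phosphorylated at serine 2 of its tail (Ser2P), 20 of H3K36me3, 19 of H3K4me3, 20 of H3K27ac and 16 of H3K4me1.

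The cells were bone marrow-derived macrophages of FVB/Hsd mice, grown to day 7 of differentiation and, during it, infected with a retrovirus and selected with puromycin. Of the 6 antibodies, each had 4 libraries, namely a control vector and shWdr82, each untreated and with lipopolysaccharide (LPS, a bacterial cell wall component) at 10 ng/ml. The control was a scrambled hairpin for Pol II, Ser2P, H3K36me3 and H3K4me1 and an empty vector for H3K4me3 and H3K27ac, so the latter pair lacks a control that expresses a hairpin. By the sample titles LPS was given for 45 min for Pol II, Ser2P, H3K36me3 and H3K4me1 and for 4 h for H3K4me3 and H3K27ac, whereas the protocol names 4 h alone. The shWdr82 cells carried 1 hairpin, the amount of Wdr82 left in them is not measured by these libraries, and markers of the cell type were not checked, since no mm9 gene annotation was at hand. With 1 library in each group, the spread between cultures is unknown, and differences are given without a test or p-value. The read depth is unknown. Ser2P peaks covered 46.0 Mb of the genome in scrambled untreated, 44.7 Mb in scrambled LPS, 43.0 Mb in shWdr82 untreated and 60.6 Mb in shWdr82 LPS cells, and this difference in called length goes with every Ser2P value after LPS. For Pol II the same order gave 112, 89.2, 106 and 94.2 Mb.

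Malat1 RNA gathers in nuclear speckles, where splicing factors are stored. Its 3′ end is cut by RNase P, which releases a small tRNA-like RNA (mascRNA). Neat1 is the scaffold of paraspeckles, nuclear bodies that hold RNA-binding proteins. It has a short and a long isoform that share their 5′ end, and the long one is needed to build the bodies. Pol II is phosphorylated at serine 2 while it elongates, and this form recruits the enzyme that writes H3K36me3 along the transcribed body. H3K4me3 marks promoters, H3K27ac active promoters and enhancers, and H3K4me1 enhancers and promoter flanks. WDR82 is a subunit of the SET1 complexes, which write H3K4me3, and of a phosphatase complex with PNUTS that acts in transcription termination. The title of the series concerns early termination at regulatory elements, and the comparison here is what the marks of transcription look like at this pair of genes with and without the hairpin.

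The RefSeq gene list of GRCm38 names Malat1, the mascRNA gene, Neat1 and Frmd8 in this order. As mascRNA comes from the 3′ end of Malat1, this order does not place it between Malat1 and Neat1. Malat1 and Frmd8 lie on the minus strand in that list, and Neat1 is known to be read in the same direction. So for Malat1 and Neat1 the high-coordinate side is the 5′ side. The promoter of Malat1 is shown because H3K4me3, H3K27ac and Pol II peaks, described below, reach over the high end of its approximate position. It is the RefSeq sequence of GRCm38.p6, chr19:5802623-5802922 on the minus strand, 250 bases before and 50 after the start, 5′ to 3′. Capitals mark the core letters of the cAMP response element, TGACG, or their reverse complement CGTCA.

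Malat1: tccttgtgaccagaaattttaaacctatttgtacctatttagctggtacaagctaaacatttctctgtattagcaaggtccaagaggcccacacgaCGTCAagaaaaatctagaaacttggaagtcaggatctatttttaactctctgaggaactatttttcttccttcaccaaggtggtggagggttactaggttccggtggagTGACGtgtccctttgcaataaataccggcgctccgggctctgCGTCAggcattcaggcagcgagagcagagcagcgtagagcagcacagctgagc

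TGACG was found at 3 places, from positions 97, 206 and 248 counted from the 5′ end of the window, with the match at 206 on the strand shown and the other pair on the opposite one. In 20.8% of 32851 mouse promoters of the same length at least 1 match was present on either strand. The TATA box letters TATAAA, held by 13.6% of the promoters, were found on neither strand. Nor was the CCAAT box (the letters of its name, held by 37.4%) or the GC box GGGCGG, held by 35.7%. With a single motif matched, no matches of different motifs overlapped. For Neat1 no promoter sequence is shown. The positions of this promoter are on another build than the peaks and were not converted.

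The peaks were read in 5 windows on mm9: a low flank of 16000 bp beyond the 3′ end of Malat1, Malat1 (5796000 to 5803000, 7001 bp), the 21999 bp between the genes, Neat1 (5825000 to 5846000, 21001 bp), and a high flank of 24000 bp on the side of Frmd8. The gene windows are approximate positions. H3K4me3 peaks lay over the high end of both gene windows in all 4 libraries. They left 68.4% of the Neat1 window and 93.0% of the stretch between the genes free in every library, but covered 59.7% to 100% of the Malat1 window. The placement over Neat1 is where the start of a gene read from high to low coordinates lies, and over Malat1 it is less distinct. The covered percent used below is the part of a window's length under peaks, and differences are in percentage points.

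**Figure D1:**
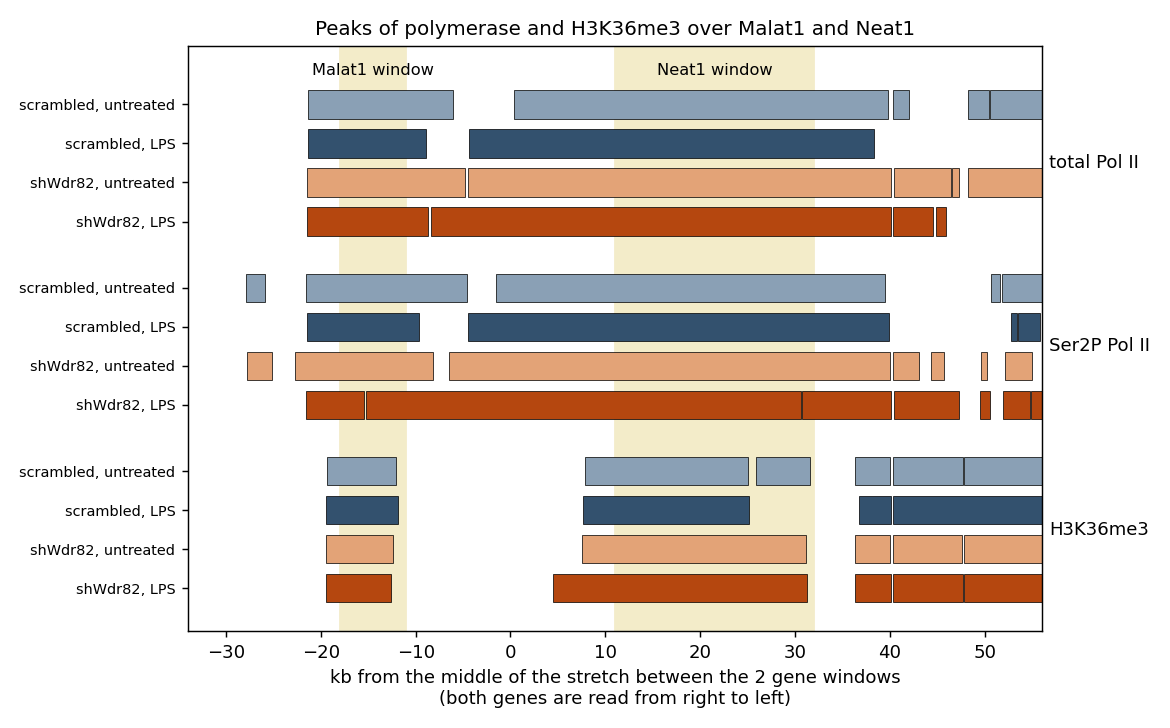
Peaks of total Pol II, Ser2P Pol II and H3K36me3 over Malat1 and Neat1, 1 row per library, with the distance in kb from the middle of the stretch between the gene windows on the x axis; bars are peaks and shaded bands are the gene windows. The break between the Malat1 and Neat1 peaks of Pol II is 6435 and 4464 bp in the scrambled libraries and 293 and 275 bp in the shWdr82 libraries, while H3K36me3 leaves a break of at least 17031 bp in every library.

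Total Pol II covered both genes from end to end in all 4 libraries, and in shWdr82 cells it also filled nearly all of the stretch between them. The Malat1 peak spanned 5792692 to 5807942 in scrambled untreated cells, 5792699 to 5805134 in scrambled LPS, 5792560 to 5809231 in shWdr82 untreated and 5792569 to 5805307 in shWdr82 LPS cells. The Neat1 peak spanned 5814378 to 5853753, 5809599 to 5852338, 5809525 to 5854091 and 5805583 to 5854097 in the same order. All 8 peaks had a score of 3100, the level at which many peaks of these lists stop, so the score holds no order among them.

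The uncovered break between the Malat1 and Neat1 peaks of Pol II was 6435 bp in scrambled untreated, 4464 bp in scrambled LPS, 293 bp in shWdr82 untreated and 275 bp in shWdr82 LPS cells. Both shWdr82 breaks were shorter than both scrambled ones. The stretch between the genes was covered to 70.7% and 79.7% in the scrambled untreated and LPS libraries and to 98.7% in either shWdr82 library. The shWdr82 minus scrambled difference was 27.9 points in untreated cells and 19.0 points after LPS. Of all tiles of this length with a Pol II peak in either library, 11.2% differed by at least 10 points in this direction in untreated cells and 17.6% after LPS. Among tiles covered to at least 50% in either library, as this stretch is, the shares were 27.2% and 38.0%, so a difference of this direction is not rare in covered stretches of these lists. When all peaks were narrowed to an equal covered length per library, the difference after LPS was 11.6 points. The narrowed cover was 45.6% in scrambled untreated, 79.7% in scrambled LPS, 76.6% in shWdr82 untreated and 91.3% in shWdr82 LPS cells. So within each treatment shWdr82 stayed higher, but scrambled LPS then lay above shWdr82 untreated cells.

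Within the stretch, 58.0% of the length was under Pol II peaks in all 4 libraries, and 1363 bp were held by both shWdr82 libraries and neither scrambled one, against 0 bp for the reverse. How much Pol II cover over the genome has either pattern was not counted. Over the whole span, Pol II covered 87.1% in scrambled untreated, 91.1% in scrambled LPS, 99.41% in shWdr82 untreated and 99.45% in shWdr82 LPS cells. The difference was 12.3 points in untreated cells, where 5.88% of tiles of the length of the span with a peak differed by at least 10 points in this direction, and 8.38 points after LPS, below 10. Between treatments, the span differed by 3.94 points in scrambled and 0.036 points in shWdr82 cells, and by 15.0 and 6.49 points when peaks were narrowed to an equal covered length per library.

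Ser2P formed some of the widest peaks of its libraries over Neat1. The Neat1 peak was 41002 bp wide in scrambled untreated cells (5812475 to 5853476) and 46524 bp in shWdr82 untreated cells (5807530 to 5854053), and in both it was the widest of all, among 15670 and 16744 peaks. In scrambled LPS cells it was 44401 bp (5809531 to 5853931), the 5th widest of 14420. In shWdr82 LPS cells 1 peak of 45798 bp (5798802 to 5844599), the 21st widest of 14870, ran from the Malat1 window through the stretch between the genes into Neat1, and a further peak of 9397 bp with a score of 98.41 held the 5′ end. Pol II peaks over Neat1 were of like width, 39376, 42740, 44567 and 48515 bp in the order scrambled untreated, scrambled LPS, shWdr82 untreated and shWdr82 LPS, but ranked 35, 63, 15 and 78 by width in lists of 32385, 21891, 28497 and 22307 peaks.

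**Figure D2:**
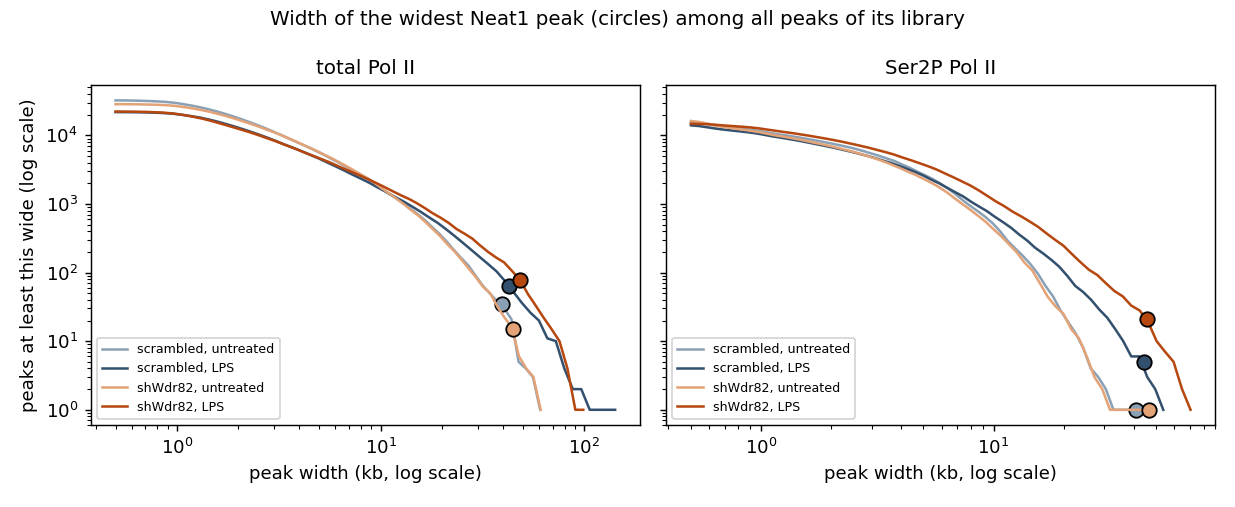
For each library, the number of peaks at least as wide as the value on the x axis (both axes logarithmic, width in kb), with a circle for the widest peak that overlaps the Neat1 window; total Pol II left, Ser2P right. In the untreated Ser2P libraries of both vectors the circle is at rank 1, while after LPS the curves reach further right and the circles lie at ranks 5 and 21.

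Few places of the genome were covered by Ser2P as fully as this pair of genes. Of 52736 tiles of the length of the span, 2 in scrambled untreated, 11 in scrambled LPS, 1 in shWdr82 untreated and 5 in shWdr82 LPS cells were covered to at least the level of the Malat1 to Neat1 span. In each library 1 of these tiles overlapped the pair of genes itself. The covered level of the span was 93.9%, 89.6%, 96.5% and 99.4% in the same order, against a mean over all tiles of 1.75%, 1.69%, 1.63% and 2.30%. For Pol II the counts were 75, 96, 4 and 43 tiles, again with the pair's own tile among them.

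Between the genes, the Ser2P break was 3041 bp in scrambled untreated, 5191 bp in scrambled LPS and 1738 bp in shWdr82 untreated cells. In shWdr82 LPS cells the stretch between the genes had no break, and the breaks lay in the Malat1 window (235 bp) and in the Neat1 window (90 bp). The covered percent of the stretch was 86.2, 76.4, 92.1 and 100 in the order scrambled untreated, scrambled LPS, shWdr82 untreated and shWdr82 LPS. The shWdr82 minus scrambled difference was 23.6 points after LPS and 5.92 points in untreated cells. Of tiles of this length with a Ser2P peak, 22.9% differed by at least 10 points in this direction after LPS, and of tiles covered to at least 50% in either library 59.0% did, so the difference after LPS is common among covered stretches. With all libraries narrowed to the same covered length the untreated difference was 14.6 points.

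Unlike Pol II, only 97 bp of the stretch were held by Ser2P in both shWdr82 libraries and neither scrambled one. A further 1738 bp were held by scrambled untreated and shWdr82 LPS cells alone, a pattern that follows no factor of the design. Over the whole span, the Ser2P difference was 2.61 points in untreated cells and 9.73 points after LPS, neither past 10. The narrowed lists gave -19.1 points after LPS, where the shWdr82 LPS library, which covers the most of the genome, loses the most of each wide peak.

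At the 3′ side of Malat1 the borders of Pol II and of H3K36me3 lay close together over the 4 libraries, and those of Ser2P less so. The Pol II peak reached 3308 bp past the low edge of the Malat1 window in scrambled untreated, 3301 bp in scrambled LPS, 3440 bp in shWdr82 untreated and 3431 bp in shWdr82 LPS cells, a spread of 139 bp. For Ser2P the distances were 3509, 3436, 4761 and 3601 bp, a spread of 1325 bp, with shWdr82 untreated cells farthest out. H3K36me3 ended nearer to the gene, at 1376, 1437, 1446 and 1416 bp past the edge, a spread of 70 bp. Both shWdr82 Pol II peaks reached farther than both scrambled ones, with 123 bp of the low flank held by the former pair alone. How often borders elsewhere have this order was not counted.

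At the 5′ side of Neat1 the Pol II peak reached 7753 bp past the high edge of the window in scrambled untreated, 6338 bp in scrambled LPS, 8091 bp in shWdr82 untreated and 8097 bp in shWdr82 LPS cells. Ser2P reached 7476, 7931, 8053 and 8086 bp in the same order. For both antibodies the shWdr82 libraries reached farther than the scrambled ones, by at least 338 bp for Pol II and 122 bp for Ser2P. For Ser2P in shWdr82 LPS cells this border was the end of the further peak of 9397 bp with a score of 98.41. The wide Ser2P peak before it ended at 5844599, inside the Neat1 window, so without the further peak the order for Ser2P after LPS turns. The share of borders elsewhere with this order was not counted. Beyond the 5′ side of Neat1, 9 libraries (3 of Pol II, 2 of Ser2P and 4 of H3K36me3) had a short break of 185 to 536 bp. These breaks had the part from 5854098 to 5854280 in common. The shWdr82 peaks of both antibodies and the scrambled untreated Pol II peak ended at this break, and further peaks followed it. For them the distance is that to the break and not to the end of the cover. The remaining scrambled peaks of Pol II and Ser2P ended short of it.

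**Figure D3:**
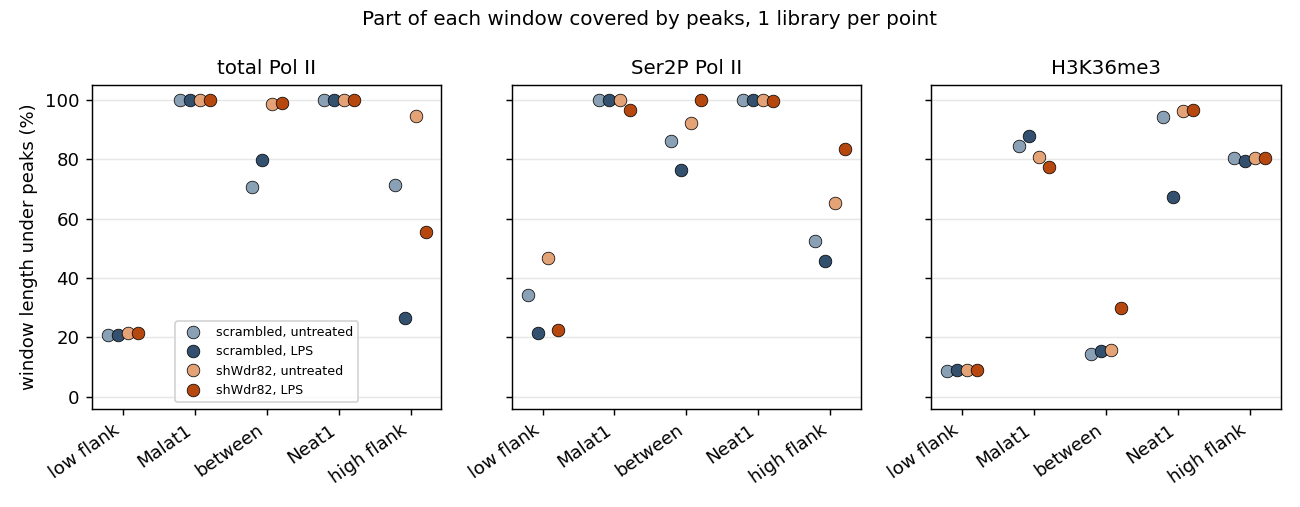
Part of each of the 5 windows under peaks (y axis, % of the window length) for total Pol II, Ser2P and H3K36me3, 1 point per library, coloured by vector and treatment. Pol II and Ser2P points sit at or near 100% over Malat1 and Neat1, the vectors separate between the genes for Pol II (70.7% and 79.7% against 98.7%), and H3K36me3 lies at 14.2% to 29.8% there.

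H3K36me3, in contrast to both forms of Pol II, left most of the stretch between the genes free and ended before the high edges of the gene windows. Over Malat1 it ran from 5794624 to 5801903 in scrambled untreated, 5794563 to 5802150 in scrambled LPS, 5794554 to 5801660 in shWdr82 untreated and 5794584 to 5801413 in shWdr82 LPS cells, and covered 84.3%, 87.9%, 80.9% and 77.3% of the window. The uncovered stretch up to the Neat1 peak was 19972, 19467, 19865 and 17031 bp. Between the genes 70.2% of the length had no H3K36me3 peak in any library, where Pol II and Ser2P left 0%. So the stretch that Pol II and Ser2P covered to 70.7% or more was covered by H3K36me3 to 14.2%, 15.4%, 15.8% and 29.8%.

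Over Neat1, H3K36me3 covered 94.1% of the window in scrambled untreated, 67.3% in scrambled LPS, 96.1% in shWdr82 untreated and 96.6% in shWdr82 LPS cells. The scrambled LPS library stands apart, since its peak (5821618 to 5839123) stops well before the 5′ end of the gene. The scrambled untreated library has a peak of nearly the same extent (5821876 to 5839087) and a second one of 5667 bp with a score of 91.87 over the 5′ part, after a break of 797 bp. Both shWdr82 libraries hold 1 peak through to 5845172 and 5845277. The shWdr82 minus scrambled difference after LPS was 29.3 points over Neat1, and 16.4% of tiles of this length with an H3K36me3 peak, or 19.2% of those covered to at least 50%, differed as much as 10 points in this direction.

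LPS minus untreated in scrambled cells was -26.8 points over Neat1, where 16.4% of tiles, or 19.4% of those covered to at least 50%, differed by at least 10 points in that direction. Kept to peaks that scored 100 or more, it was 0.171 points, since the second peak of the scrambled untreated library is then left out. The difference between the vectors in untreated cells, 1.99 points as deposited, became 29.0 points with that threshold. Over the whole span H3K36me3 covered 57.6%, 47.3%, 58.6% and 64.5% in the order scrambled untreated, scrambled LPS, shWdr82 untreated and shWdr82 LPS. The difference between the vectors was 17.2 points after LPS, where 12.4% of tiles of this length were at least 10 points higher, and 1.05 points in untreated cells. In scrambled cells LPS minus untreated was -10.3 points, beside 10.7% of tiles at least 10 points lower. It was 1.08 points when only scores of 100 or more were kept. Both shares for the span are over all tiles with a peak, and shares among tiles covered to at least 50% were not counted.

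On the 3′ side of Neat1, the H3K36me3 peak of shWdr82 LPS cells reached 5818445, which is 3081 to 3431 bp farther into the stretch between the genes than in the other 3 libraries. The shWdr82 minus scrambled difference of H3K36me3 there was 14.4 points after LPS, and the share of tiles with such a difference was not counted. The same condition, shWdr82 with LPS, was the one in which Ser2P ran through the stretch without a break. Its Ser2P list also covered the most of the genome, and a link between the 2 marks was not tested. The H3K36me3 peaks of both shWdr82 libraries also covered 761 bp of the Neat1 window that neither scrambled library held, against 0 bp for the reverse. These 761 bp lie within the break of 797 bp between the scrambled untreated peaks, beyond the end of the scrambled LPS peak. Over Malat1 the order was the opposite, with 243 bp held by both scrambled libraries alone and 0 bp by both shWdr82 libraries alone. For neither window were such lengths counted over the genome.

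**Figure D4:**
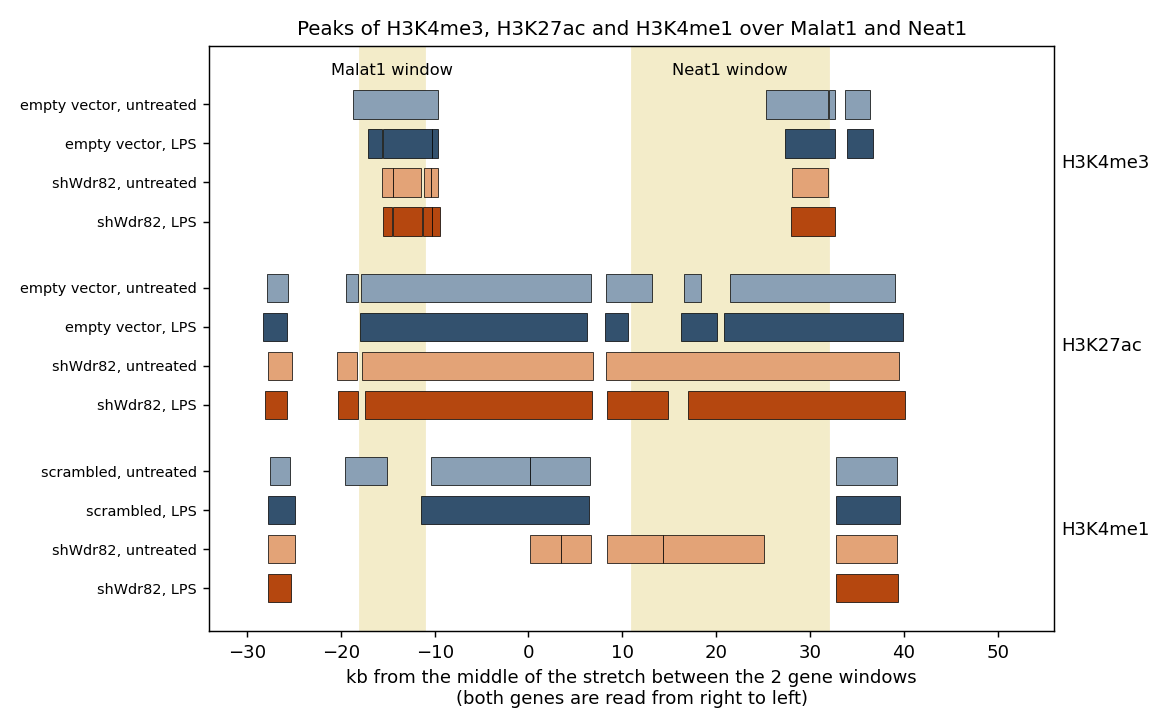
Peaks of H3K4me3, H3K27ac and H3K4me1 over Malat1 and Neat1, 1 row per library, drawn as distance in kb from the middle of the stretch between the gene windows (shaded bands). H3K4me3 bars are shorter in the shWdr82 rows over both genes, with 2 empty vector peaks near 35 kb that the shWdr82 rows lack, while H3K27ac covers most of the span in every row.

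H3K4me3 over Malat1 was narrower in both shWdr82 libraries, on the 3′ side of the peak. In empty vector untreated cells 1 peak of 9079 bp (5795333 to 5804411), the 5th widest of 18951, covered 100% of the Malat1 window. In empty vector LPS cells 3 peaks from 5796874 to 5804389 covered 87.0%. The shWdr82 libraries held 4 peaks each, from 5798438 to 5804365 in untreated and from 5798487 to 5804537 in LPS cells, and covered 59.7% and 62.0%. The 5′ border differed by at most 172 bp over the 4 libraries, while the 3′ border lay at least 1564 bp farther into the gene in shWdr82 cells.

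The difference over Malat1 was -40.3 points in untreated cells and -24.9 points after LPS. At least 10 points lower in shWdr82 cells were 10.7% and 5.39% of tiles of this length with an H3K4me3 peak, untreated and LPS in that order. Among tiles covered to at least 50% in either library the shares were 60.6% and 39.3%, so most such wide H3K4me3 stretches were narrower in shWdr82 untreated cells. Counted in 1000 bp bins covered to at least 50%, the differences were -25.0 and -12.5 points. H3K4me3 peaks covered 32.1 Mb of the genome in empty vector and 26.8 Mb in shWdr82 untreated cells, and 29.5 and 29.6 Mb after LPS.

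Over Neat1, the widest H3K4me3 peak was 6597 bp in empty vector untreated, 5390 bp in empty vector LPS, 3834 bp in shWdr82 untreated and 4618 bp in shWdr82 LPS cells, again shorter in both shWdr82 libraries. Within their own lists these peaks ranked 45, 138, 156 and 124 by width, so after LPS the shWdr82 peak did not rank lower. The window was covered to 31.4%, 22.2%, 18.3% and 19.0%. The shWdr82 minus empty vector difference was -13.2 points in untreated cells and -3.26 points after LPS. With narrowed peaks the untreated difference was -7.91 points. The share of all tiles with such a difference was not counted for H3K4me3 over this window. Beyond the 5′ end of Neat1, a region of 2972 bp (5847786 to 5850757) held an H3K4me3 peak in both empty vector libraries, with scores of 861.3 and 256.73, and in neither shWdr82 library. The nearest shWdr82 peak lay 1911 bp away in untreated and 1153 bp in LPS cells. All 4 libraries of each of the other 5 antibodies had a peak that overlapped the region, but H3K36me3 covered only 48 to 458 bp at its high edge. Of 21626 merged H3K4me3 regions, 305 (1.41%) had this pattern.

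H3K27ac covered most of the pair of genes in every library and, unlike H3K4me3, was wider over Neat1 in shWdr82 cells. A peak of 24582 bp in empty vector untreated, 24169 bp in empty vector LPS, 24675 bp in shWdr82 untreated and 24193 bp in shWdr82 LPS cells ran from the 3′ part of Malat1 past its start into the stretch between the genes. Its widths differed by at most 506 bp. The stretch was covered to 92.9%, 89.6%, 94.0% and 92.4% in that order. Over Neat1 the covered part was 68.9%, 70.8%, 100% and 89.7%. In shWdr82 untreated cells a single peak of 31310 bp, from 5822221 to 5853530 and the 39th widest of 31677, replaced the 3 peaks of the empty vector library.

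The H3K27ac difference over Neat1 was 31.1 points in untreated cells and 18.8 points after LPS, with both shWdr82 libraries above both empty vector libraries. Of tiles of this length with an H3K27ac peak, 6.53% and 3.05% were at least 10 points higher in shWdr82 cells, untreated and LPS in that order. Of tiles covered to at least 50% the shares were 24.6% and 6.09%. Read in 1000 bp bins with any overlap, the untreated difference was 18.2 points. Peaks that scored 100 or more gave 36.8 points after LPS.

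H3K4me1 between the genes was lower in both shWdr82 libraries, and part of its cover in scrambled cells came from a peak of low score. Between the genes it covered 76.9% in scrambled untreated, 79.4% in scrambled LPS, 40.8% in shWdr82 untreated and 0% in shWdr82 LPS cells. Both scrambled libraries lay above both shWdr82 libraries, and 10623 bp were held by the former pair alone. How much H3K4me1 cover over the genome has this pattern was not counted. The widest peak between the genes was 17910 bp (5802558 to 5820467) in scrambled LPS cells, the 49th widest of 65149. The shWdr82 minus scrambled difference was -36.1 points in untreated cells and -79.4 points after LPS. Of tiles of this length with an H3K4me1 peak, 8.31% and 7.09% were at least 10 points lower in shWdr82 cells, untreated and LPS in that order. Of tiles covered to at least 50% the shares were 21.7% and 17.7%. In untreated cells much of the scrambled cover was 1 peak of 10568 bp with a score of 53.12, and peaks that scored 100 or more gave a difference of -2.20 points.

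Over Neat1 an H3K4me1 peak was called in shWdr82 untreated cells alone, where 2 peaks with scores of 172.59 and 112.59 covered 67.1% of the window. Over Malat1 H3K4me1 covered 41.6% in scrambled untreated and 6.33% in scrambled LPS cells and 0% in both shWdr82 libraries, and the former value came from a peak of 4423 bp with a score of 71.07. Peaks that scored 100 or more gave 0 points in place of the untreated difference of -41.6 points. The share of tiles with such differences was not counted for H3K4me1 over either gene window. In the high flank all 4 libraries had an H3K4me1 peak just beyond the 5′ end of Neat1, which covered 26.9%, 28.4%, 27.1% and 28.0% in the order scrambled untreated, scrambled LPS, shWdr82 untreated and shWdr82 LPS. The low flank was covered to 22.9%, 17.9%, 17.5% and 15.0%, with a 2nd peak in scrambled untreated cells alone.

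Frmd8 lies on the minus strand, so its 3′ end faces Neat1, and cover in the high flank was not assigned to either gene. In this flank Pol II covered 71.4% in scrambled untreated, 26.4% in scrambled LPS, 94.5% in shWdr82 untreated and 55.5% in shWdr82 LPS cells. Both shWdr82 values were above the scrambled value of the same treatment, and both LPS values were below the untreated value of the same vector. The differences between the vectors were 23.0 points in untreated cells and 29.1 points after LPS, beside 10.4% and 17.1% of tiles of this length at least 10 points higher. LPS minus untreated was -45.0 points in scrambled and -39.0 points in shWdr82 cells, beside 29.2% and 29.4% of tiles at least 10 points lower. With narrowed peaks of equal covered length these were -21.9 and -23.1 points. The covered length over the genome was also lower after LPS with both vectors, by the values given above. The Pol II shares for this flank are over all tiles with a peak, not only well covered ones.

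Ser2P covered 52.5%, 45.9%, 65.3% and 83.3% of the high flank in the same order of libraries. The difference between the vectors was 12.8 points in untreated cells and 37.4 points after LPS, beside 5.14% and 21.6% of tiles at least 10 points higher. These shares too are over all tiles with a peak. Among peaks that scored 100 or more the difference after LPS was 2.25 points, a threshold that removes the peak of 9397 bp with a score of 98.41 at the 5′ end of Neat1, which reaches into this flank. The untreated difference ranged from 7.98 points with the window widened by 1000 bp to 25.0 points in 1000 bp bins with any overlap. H3K36me3 hardly differed there, at 80.4%, 79.3%, 80.4% and 80.4%.

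In the low flank, beyond the 3′ end of Malat1, Pol II held only the ends of the Malat1 peaks, while Ser2P, H3K27ac and H3K4me1 also had separate peaks. Pol II covered 20.7%, 20.6%, 21.5% and 21.4% and Ser2P 34.2%, 21.5%, 46.7% and 22.5% in the order scrambled untreated, scrambled LPS, shWdr82 untreated and shWdr82 LPS. The higher untreated Ser2P values include a region of 2746 bp (5786162 to 5788907) with a peak in both untreated libraries, with scores of 107.05 in scrambled and 172.83 in shWdr82 cells, and in neither LPS library. The nearest Ser2P peak lay 3656 and 3491 bp away in the scrambled and shWdr82 LPS libraries. H3K27ac and H3K4me1 had a peak there in 4 of 4 libraries each, and Pol II, H3K36me3 and H3K4me3 in 0 of 4 each. Of 30111 merged Ser2P regions, 1509 (5.01%) were held by both untreated libraries and neither LPS library.

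The tiles of the genome whose covered percent over all 24 libraries was nearest to that of the Neat1 window were still far from it. The nearest, chr17:71193391-71214391, differed by a mean of 16.9 points per library, and the next, chr19:12537598-12558598 and chr6:72495453-72516453, by 17.7 and 18.1 points. The nearest tile had Pol II over 96.3% to 100% of its length and H3K36me3 over 58.7% to 74.2%. No gene was assigned to these positions.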

How the data were processed

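ChIP-seq peak lists of 24 libraries were used, 1 per group. Bowtie 0.12.7, MACS 1.4 and the mm9 build are named per the submitters' processing notes. What settings were used is not given in the sources used here. The deposited peak score is the authors' own value from 50 to 3233.06, used only to rank or filter within a list. Peak starts and ends are other deposited values that the authors' caller set library by library, so a gap between peaks is not an absence of signal.

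Peaks overlapping the stretch by at least 1 bp were taken, and covered length, breaks, borders and width ranks were computed with Python 3.11.15, numpy 2.4.6 and pandas 2.3.3 and checked on simulated peaks. Differences of 10 points were counted over non-overlapping tiles of each window's length. Base pairs held by a pair of libraries alone were not counted over the genome. The tiles of single windows, the restriction to covered tiles and the merged regions were chosen after seeing the data. Members, windows and comparisons were chosen with earlier results of these data known. Named members are the pair of genes, and the tiles most like Neat1 are the 3 with the lowest mean absolute difference of covered percent. The 7 alternatives were a score of at least 100, equal list lengths, joined gaps, wider windows, a pair of bin rules and narrowed peaks. Paraspeckle protein genes and cell type markers were not analysed here, since no gene was joined to mm9 positions.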

Additional observations from a re-analysis of the deposited data

How the results depend on the processing

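Differences of Pol II, Ser2P and H3K36me3 over the span, and of Pol II and Ser2P between the genes, were recomputed under 7 alternatives. Where the deposited difference was at least 10 points, 38 values kept their sign and stayed past 10 points, 3 kept their sign and fell under 10, and 1 turned, the last 4 all for H3K36me3 over the span, LPS minus untreated in scrambled cells. Where it was under 10 points, 4 values turned and 9 passed 10 points. Among the other windows and antibodies, of deposited differences of at least 10 points 228 values stayed past 10 points, 17 fell under it, 2 became 0 and 5 turned. With peaks narrowed to the same covered length, LPS minus untreated for Pol II was 15.0 points over the span and 34.1 points between the genes in scrambled cells (3.94 and 8.96 as deposited), and 6.49 and 14.8 points in shWdr82 cells (0.036 and 0.0818). The same narrowing gave -19.1 points for Ser2P over the span, shWdr82 minus scrambled after LPS (9.73 as deposited), and -28.2 points for LPS minus untreated in shWdr82 cells (2.83), with -3.23 points between the genes (7.90). Ser2P in shWdr82 LPS cells then covered 23.9% of Malat1 and 61.7% of Neat1, and its difference from scrambled LPS cells was -76.1 and -38.3 points (-3.36 and -0.429). Joined gaps turned H3K36me3 over the span between untreated vectors to -0.544 points. Narrowing removes a fixed part of each width, so the widest peaks lose the most. For Ser2P in the high flank, LPS minus untreated in shWdr82 cells was -2.06 points narrowed and -11.8 points with scores of 100 or more (17.97 as deposited). That threshold also gave 12.4 points for H3K36me3 over the span between untreated vectors (1.05), 1.08 for LPS minus untreated in scrambled cells (-10.3) and 0.171 for the same over Neat1 (-26.8), since it drops 1 scrambled untreated peak. It gave -1.36 points for H3K27ac in the low flank between vectors after LPS (11.6), and 6.33 for H3K4me1 over Malat1, LPS minus untreated in scrambled cells (-35.3); the cause was not tested beyond the peaks it leaves out.

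No paired analysis was possible because each group had 1 library, and for the same reason leaving out a replicate was not run. Read depth is unknown, so a longer list or wider peaks after deeper sequencing cannot be told apart from a difference in the cells. Vector and LPS time differ between antibodies, so their LPS differences were not compared.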
